A study of Mus musculus with 6 samples.

Results

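The 10 genes described here are the core circadian clock genes Arntl, Npas2, Per1, Per2, Per3, Nr1d1 and Nr1d2 and the PAR bZIP output genes Dbp, Tef and Hlf, chosen by name out of 23699 gene models. They were chosen with earlier results of these data known. Their RNA was measured by sequencing of whole mouse duodenum in 3 mutant and 3 control libraries. Mutant mice were Nkx2.2flox/flox; Villin-Cre/+, and mutant 3 also carried Rosa26Tomato/+. Control mice were Nkx2.2flox/+, carried no Cre according to the labels, and like the mutants carried a floxed allele. All were adults of 6 weeks on a mixed background, and the tissue was the 2 cm of duodenum nearest the stomach. The Villin promoter drives Cre in the intestinal epithelium, so Cre is not active in the muscle, connective tissue, nerves and blood cells that the piece also holds. The hour of dissection is not given in the sources used here, and its part in any result below was not tested. Nothing in the labels states outright that every library came from its own mouse, and the p-values cover no more than the spread among the 6 libraries.

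The circadian clock of mammalian cells is a feedback loop of transcription with a period of about a day. A dimer of ARNTL (also called BMAL1) with CLOCK or its relative NPAS2 binds E-box sequences and switches on the Per, Cry and Nr1d genes. The PER and CRY proteins then block the dimer, and the nuclear receptors NR1D1 and NR1D2 (the REV-ERBs) repress Arntl and Npas2 through RORE sequences. DBP, TEF and HLF are bZIP factors under E-box control that bind D-box sequences and pass the rhythm on to genes of metabolism and transport. In many mouse tissues, including the intestine, Arntl RNA peaks at about the opposite time of day from Dbp, Nr1d1 and Per RNA, so the level of each gene in a single sample depends on the hour.

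Promoter windows of 250 bases before to 50 bases after the transcript start are shown for Dbp, Nr1d2, Per1, Per3 and Tef, since the feedback loop acts through short motifs near such starts. Of the windows printed, only that of Dbp held none of the motifs searched, and those of Npas2 and Hlf, which also held none, are not printed. They come from RefSeq on build GRCm38.p6 and are read 5′ to 3′ along the gene's strand. Capitals mark the motifs searched on both strands: the E-box CACGTG, the E-prime box CACGTT, the D-box TTATGTAA or TTACGTAA, and the RORE core AGGTCA, none of which overlapped in these windows. The windows are Dbp at chr7:45704997-45705296 (plus strand), Nr1d2 at chr14:18239057-18239356 (minus strand), Per1 at chr11:69098699-69098998 (plus strand), Per3 at chr4:151044616-151044915 (minus strand), and the 2 starts of Tef at chr15:81802423-81802722 and chr15:81811164-81811463 (plus strand).
Dbp: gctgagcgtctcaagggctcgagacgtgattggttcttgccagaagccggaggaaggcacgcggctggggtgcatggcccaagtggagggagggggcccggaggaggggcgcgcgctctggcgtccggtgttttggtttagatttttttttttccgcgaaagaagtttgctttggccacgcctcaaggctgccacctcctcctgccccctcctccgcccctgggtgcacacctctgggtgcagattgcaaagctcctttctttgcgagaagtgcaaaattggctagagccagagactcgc
Nr1d2: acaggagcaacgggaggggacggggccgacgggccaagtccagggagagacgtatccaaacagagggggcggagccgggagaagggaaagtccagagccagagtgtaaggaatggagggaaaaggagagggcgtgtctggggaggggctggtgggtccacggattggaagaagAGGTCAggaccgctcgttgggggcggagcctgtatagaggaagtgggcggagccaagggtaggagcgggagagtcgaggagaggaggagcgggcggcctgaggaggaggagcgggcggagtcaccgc
Per1, upstream start: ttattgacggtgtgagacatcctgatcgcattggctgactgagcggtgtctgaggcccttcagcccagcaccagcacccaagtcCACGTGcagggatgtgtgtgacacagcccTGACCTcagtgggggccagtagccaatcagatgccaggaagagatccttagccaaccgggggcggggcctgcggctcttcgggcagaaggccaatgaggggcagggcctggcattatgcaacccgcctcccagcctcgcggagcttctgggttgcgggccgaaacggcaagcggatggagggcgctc
Per3: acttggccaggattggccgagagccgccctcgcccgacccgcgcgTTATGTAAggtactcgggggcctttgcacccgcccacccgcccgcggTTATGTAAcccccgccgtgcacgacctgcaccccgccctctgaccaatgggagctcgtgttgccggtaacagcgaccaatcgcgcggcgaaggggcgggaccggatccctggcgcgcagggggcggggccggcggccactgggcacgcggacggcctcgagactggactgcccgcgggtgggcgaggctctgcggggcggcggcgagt
Tef, upstream start: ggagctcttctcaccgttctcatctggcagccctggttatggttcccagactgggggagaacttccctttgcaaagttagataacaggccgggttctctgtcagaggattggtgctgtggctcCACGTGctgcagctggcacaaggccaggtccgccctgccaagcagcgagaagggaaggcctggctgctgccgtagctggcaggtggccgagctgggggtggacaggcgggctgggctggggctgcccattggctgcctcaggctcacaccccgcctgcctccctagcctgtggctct
Tef, downstream start: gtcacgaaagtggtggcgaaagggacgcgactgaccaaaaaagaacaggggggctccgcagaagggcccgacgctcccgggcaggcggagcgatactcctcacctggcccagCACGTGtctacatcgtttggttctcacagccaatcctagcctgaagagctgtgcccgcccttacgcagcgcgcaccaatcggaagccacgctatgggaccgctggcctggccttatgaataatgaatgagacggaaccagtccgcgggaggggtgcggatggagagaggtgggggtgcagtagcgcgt

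Of the 10 genes, 9 matched the RefSeq windows, with 12 windows in all. An E-box lay in 3 of the 12, against 7.15% of all 32851 windows of the same length. These were both Tef windows, where it began 127 and 138 bases before the start, and the upstream Per1 window, where it began 166 bases before the start. The D-box was present in 1 window, that of Per3, at 205 and 158 bases before the start, against 1.06% of all windows. The RORE core was present in 3 windows (Arntl, Per1 and Nr1d2), against 16.3% of all windows, and the E-prime box in 1 window, that of Nr1d1, against 4.68%. The windows of Dbp, Npas2 and Hlf held none of these letters. A match is a description of the letters and does not show that a factor binds there.

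The libraries held 21.3, 23.8 and 21.0 M fragments in mutants 1 to 3 and 26.3, 21.8 and 21.4 M fragments in controls 1 to 3. Levels of the 10 genes rested on between 100 fragments (Npas2 in control 2) and 4515 fragments (Tef in control 1). Levels are FPKM, fragments per kilobase of transcript and per M fragments, so that genes of different length can be compared. The targeted gene, Nkx2-2 (chr2:147003282-147012138, mm9), lay at 1.10, 0.736 and 0.221 FPKM in mutants 1 to 3, against 1.13, 1.32 and 0.779 FPKM in controls 1 to 3, and the groups overlapped (exact two-sided permutation test, p = 0.2). Mutants 2 and 3 expressed Xist (19.7 and 22.5 FPKM), against at most 0.0894 FPKM in the other 4 libraries. Kdm5d, on chromosome Y, lay at 4.66, 0.0160 and 0.00907 FPKM in mutants 1 to 3, against 4.47, 5.67 and 4.05 FPKM in controls 1 to 3. By these genes mutants 2 and 3 read as female and the other 4 libraries as male. Sex is thus not balanced between the groups, and its part in any change below was not tested. Epithelial, smooth muscle, fibroblast, lymphoid, myeloid, endothelial and neuronal markers were all detected, while 3 liver markers summed to at most 2.64 FPKM in any library. Both libraries numbered 3 stood apart from the other 4. Their 6 epithelial markers summed to 5377 FPKM in mutant 3 and 5409 FPKM in control 3, against 8899 to 12605 FPKM in the others. Their 5 smooth muscle markers summed to 596 FPKM in mutant 3 and 760 FPKM in control 3, against 370 to 445 FPKM in the others. Among the epithelial markers, Fabp2 (2923 and 2992 FPKM in mutant 3 and control 3), Krt20 and Vil1 were lower in both. Epcam (815 and 725 FPKM), Cdh1 (137 and 141 FPKM) and Lgr5 were not lower in both, and Epcam was highest in mutant 3. In such bulk tissue, fewer cells of a type and less RNA per cell cannot be told apart. Each change of the 10 genes is therefore given with and without the libraries numbered 3.

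The main comparison asked whether clock and output RNA differed between mutant and control duodenum. Dbp and Nr1d2 were higher in each mutant library than in any control library, Hlf was above every control in mutants 1 and 2 but not in mutant 3, and Per2 and Nr1d1 differed less between the groups than within them. In the limma test with Benjamini-Hochberg adjustment over all 13596 genes tested, 0 of the 10 genes were called, where 0.0221% of all genes were called. At an unadjusted p under 0.05, 2 of the 10 were higher in mutants (Dbp and Nr1d2) and 0 were lower, against 1.80% of all genes higher. The mean log2 level was higher in mutants for 9 of the 10, all but Arntl, against 44.2% of all genes, and the median log2 change was 0.37 for the 10 against -0.02 for all genes. Without mutant 1, mutant 3 or control 1, 9 of the 10 again had the higher mean in mutants, while without control 3 that count was 6. Values of the groups did not overlap for 2 of the 10, both higher, against 4.05% of all genes that lay higher in this way. With the replicate number as a block, Dbp passed, 1 of 10, against 0.0662% of all genes called higher. That block rests on a matching of numbers 1 and 2 that the data do not settle. Without both libraries numbered 3, a setting chosen after seeing the data, Hlf passed and Dbp did not, 1 of 10, where 1.04% of all genes were called higher, and 8 of the 10 had the higher mean, against 39.9% of all genes. None of these counts rests on 10 separate observations, since the genes vary together over the same 6 libraries. The 10 genes were also chosen with earlier results of these data known, so the counts are a description only. By Pearson's r of log2 levels, Dbp and Nr1d2 correlated at 0.993, Per3 and Tef at 0.973, and Per2 and Nr1d1 at -0.877.

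**Figure D1:**
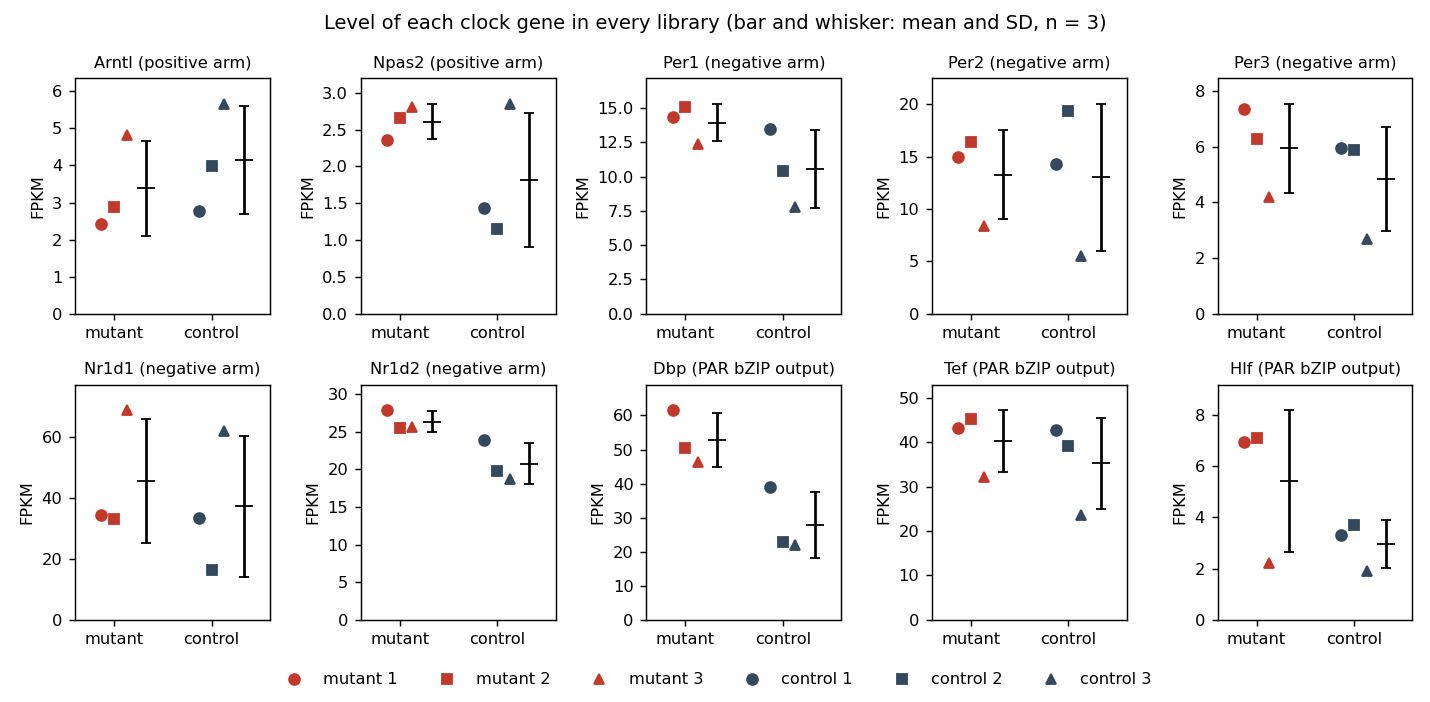
FPKM (linear axis from 0) of each of the 10 genes in mutants 1 to 3 (red) and controls 1 to 3 (dark blue), with the marker shape giving the library number and the bar and whisker the mean and SD of each group (n = 3). The 3 mutant points of Dbp (46.4 to 61.7) and of Nr1d2 (25.5 to 27.9) lie above the control points, while the triangles of both libraries numbered 3 lie apart for Arntl, Per2 and Nr1d1.

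In the positive arm, Arntl (chr7:120350979-120457640, mm9), the obligate partner in the activating dimer, lay at 2.42, 2.88 and 4.83 FPKM in mutants 1 to 3, against 2.77, 3.98 and 5.67 FPKM in controls 1 to 3. In each group the library numbered 3 was the highest and the groups overlapped. Each mutant lay below the control of the same number, by 0.16, 0.40 and 0.21 on the log2 scale. The means were 3.38 ± 1.28 FPKM in mutants and 4.14 ± 1.46 FPKM in controls (SD, n = 3 each), and the log2 change of -0.26 ± 0.30 (SE) had a 95% interval of -0.97 to 0.45 (limma adjusted p = 0.999). It was -0.28 without both libraries numbered 3, and with single libraries left out it ran from -0.51 (without mutant 3) to -0.029 (without control 3), with -0.079 without mutant 1.

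Npas2 (chr1:39251117-39420085), which can stand in for CLOCK, lay at 2.36, 2.66 and 2.81 FPKM in mutants 1 to 3, against 1.44, 1.16 and 2.85 FPKM in controls 1 to 3. Control 3 was as high as the mutants, and the other controls were lower than every mutant. The log2 change was 0.49 ± 0.26 (limma adjusted p = 0.999) and 0.75 without both libraries numbered 3 (adjusted p = 0.130). As a ratio within each library, Npas2 to Arntl was 0.973, 0.924 and 0.582 in mutants 1 to 3, against 0.520, 0.290 and 0.503 in controls 1 to 3, so the groups did not overlap. This ratio was 1 of 8 computed and the only one without overlap.

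In the negative arm, the period genes encode the proteins that, with the cryptochromes, inhibit the activating dimer. Per1 (chr11:68912458-68923459) lay at 14.4, 15.05 and 12.4 FPKM in mutants 1 to 3, against 13.4, 10.4 and 7.79 FPKM in controls 1 to 3. Mutants 1 and 2 were above each control, and mutant 3 lay between controls 1 and 2. Its log2 change was 0.41 ± 0.19 (95% interval -0.03 to 0.86, limma adjusted p = 0.999), with an adjusted p of 0.522 under the block, and 0.30 without both libraries numbered 3.

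Per2 (chr1:93312559-93355905) lay at 14.997, 16.4 and 8.40 FPKM in mutants 1 to 3, against 14.3, 19.4 and 5.49 FPKM in controls 1 to 3. The spread within each group was larger than the difference between the means, with both libraries numbered 3 at the bottom. Its log2 change of 0.14 ± 0.51 had a 95% interval of -1.12 to 1.40, and the sign turned without both libraries numbered 3 (-0.082). Per3 (chr4:150377764-150418731), the period gene whose promoter window held both D-boxes, lay at 7.36, 6.29 and 4.20 FPKM in mutants 1 to 3, against 5.95, 5.88 and 2.70 FPKM in controls 1 to 3. Mutants 1 and 2 were above each control, but mutant 3 was not. Per3 had a log2 change of 0.31 ± 0.32 (limma adjusted p = 0.999), and of 0.19 without both libraries numbered 3.

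Nr1d1 (chr11:98629249-98636556), which encodes REV-ERB alpha, lay at 34.5, 32.9 and 68.9 FPKM in mutants 1 to 3, against 33.5, 16.2 and 61.9 FPKM in controls 1 to 3. Both libraries numbered 3 stood far above the other 4, and control 2 was the lowest. Its log2 change of 0.40 ± 0.56 had a 95% interval of -0.9998 to 1.79, and was 0.52 without both libraries numbered 3. Without control 2 it turned to -0.090. In the mm9 gene annotation 263 exon bases of Nr1d1 lie opposite exons of Thra, but the deposited gene models of the pair shared 0 bases.

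Nr1d2 (chr14:19036570-19071620), which encodes REV-ERB beta, lay at 27.9, 25.5 and 25.6 FPKM in mutants 1 to 3, against 23.9, 19.8 and 18.7 FPKM in controls 1 to 3. The lowest mutant was above the highest control. The means were 26.3 ± 1.38 FPKM in mutants and 20.8 ± 2.73 FPKM in controls, a log2 change of 0.34 ± 0.12 with a 95% interval of 0.07 to 0.62. It did not pass the adjusted threshold (limma adjusted p = 0.999, and 0.470 with the block), although its unadjusted p was 0.0218 in the fit over all genes, higher in 3 of 3 mutants. Its exact two-sided permutation p was 0.1, the smallest that 3 samples against 3 can give. Without both libraries numbered 3 the log2 change was 0.29, and with any single library left out it lay between 0.27 and 0.44.

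Among the PAR bZIP outputs, Dbp (chr7:52960617-52965573), the D-box activator whose RNA swings widely over the day in most mouse tissues, lay at 61.7, 50.4 and 46.4 FPKM in mutants 1 to 3, against 39.1, 22.8 and 21.9 FPKM in controls 1 to 3. Each mutant was above each control, and each group had its highest value in the library numbered 1. The means were 52.8 ± 7.93 FPKM in mutants and 27.9 ± 9.68 FPKM in controls. The log2 change was 0.95 ± 0.23, a fold of 1.93 on the log2(FPKM + 0.5) scale, with a 95% interval of 0.39 to 1.501. In limma Dbp stood at rank 50 by p among the genes tested and did not pass (unadjusted p = 0.00482, adjusted p = 0.999). Its exact two-sided permutation p was 0.1. With the replicate number as a block its SE was 0.11 and Dbp rose (limma adjusted p = 0.0110). The differences were 0.65, 1.13 and 1.06 in the pairs numbered 1 to 3, where the matching of numbers 1 and 2 is not settled. In the isoform fit with the block, the only Dbp isoform, which has the same 6 values, did not pass (adjusted p = 0.432). The log2 change was 0.89 without both libraries numbered 3 (adjusted p = 0.430) and between 0.80 and 1.21 with any single library left out.

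The deposited gene model of Dbp, counted over its whole span with introns, shares 741 bases with that of Sphk2, a sphingosine kinase gene on the opposite strand. Of the exon bases of Dbp in the mm9 gene annotation, 491 lie opposite exons of Sphk2. Whether the reads keep their strand is not given in the sources used here. Sphk2 averaged 34.2 ± 1.37 FPKM in mutants and 35.7 ± 1.70 FPKM in controls, and lay between 33.3 and 37.3 FPKM in all 6 libraries. Summed markers of the exocrine pancreas split the libraries by group as Dbp did, but with the mutants lower. Their 5 genes summed to 7399, 4445 and 1731 FPKM in mutants 1 to 3, against 12385, 11309 and 7929 FPKM in controls 1 to 3. Singly, only Ctrb1 and Prss2 were without overlap, 2 of the 5, where 3.71% of all genes lay lower in this way. Cpa1, Pnlip and Cela2a overlapped. Within each group the sum fell from library 1 to library 3, as Dbp did. Each of the 5 had a lower mean in mutants, and none was at 0. Of these 5 genes 0 were called, where 0.0221% of all genes were called. Their part in the level of Dbp was not tested. The summed epithelial markers overlapped between the groups (5377 to 12605 FPKM in mutants, 5409 to 10344 FPKM in controls). Singly, 1 of the 6, Epcam, lay higher in mutants without overlap, as Dbp did, where 4.05% of all genes lay higher in this way. Epcam lay at 795, 799 and 815 FPKM in mutants 1 to 3, against 756, 746 and 725 FPKM in controls 1 to 3. The part of the epithelial markers in the level of Dbp was not tested.

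Tef (chr15:81633103-81657293) lay at 43.3, 45.3 and 32.2 FPKM in mutants 1 to 3, against 42.9, 39.1 and 23.7 FPKM in controls 1 to 3. Mutant 1 and control 1 differed by 0.01 on the log2 scale, and both libraries numbered 3 were the lowest of the 6. The log2 change was 0.22 ± 0.24 (limma adjusted p = 0.999) and 0.11 without both libraries numbered 3. Of the exon bases of Tef in the mm9 gene annotation, 193 lie opposite exons of Gm17597, a noncoding RNA gene. Hlf (chr11:90197849-90252231) lay at 6.96, 7.09 and 2.21 FPKM in mutants 1 to 3, against 3.31, 3.69 and 1.91 FPKM in controls 1 to 3. Mutants 1 and 2 stood above every other library, and mutant 3 lay below controls 1 and 2. The log2 change over all 6 libraries was 0.67 ± 0.45 (limma adjusted p = 0.999, and 0.427 with the block). Without both libraries numbered 3 the log2 change was 0.91 and Hlf passed (adjusted p = 0.0212), in a comparison of 2 mutants with 2 controls chosen after seeing the data. At an unadjusted p under 0.05 the blocked fit held 5 of the 10 genes higher (Dbp, Hlf, Npas2, Nr1d2 and Per1), against 3.82% of all genes. Here too the genes are not separate observations.

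**Figure D2:**
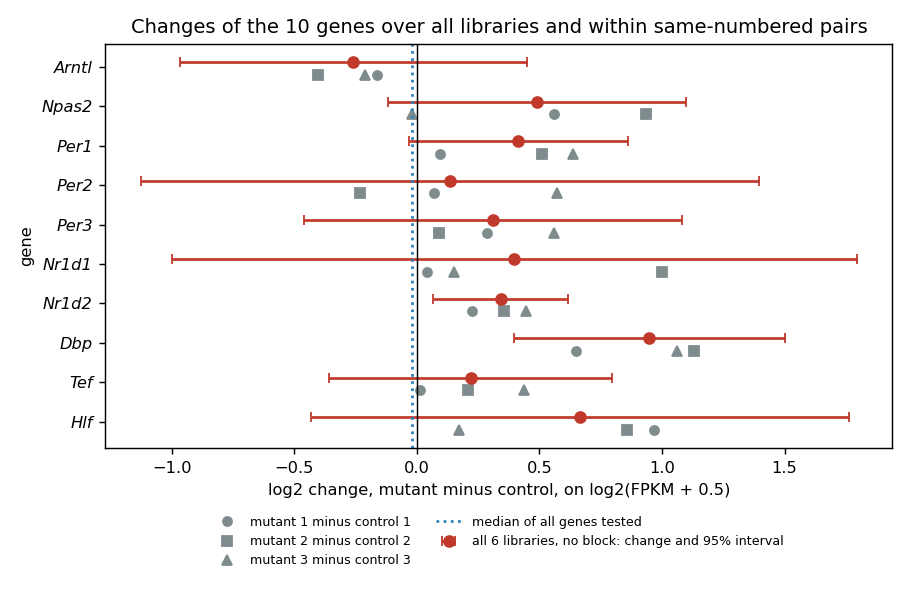
Log2 change of each gene, mutant minus control on log2(FPKM + 0.5), over all 6 libraries without a block (red point, with its 95% interval), and the difference within each same-numbered pair (grey markers). The intervals of Dbp (0.39 to 1.501) and Nr1d2 (0.07 to 0.62) lie above 0, the other 8 include 0, and the dotted line is the median of all genes tested (-0.02).

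Within the same-numbered pairs, 9 of the 10 genes were higher in mutant 1, 8 in mutant 2 and 8 in mutant 3 than in the control of that number. Over all genes tested these shares were 55.7%, 33.5% and 59.5%. The 10 genes vary together and are not separate observations, and the data do not settle the matching of numbers 1 and 2. By arm and with the average of the controls set to 0, the 3 outputs had mean log2 levels of 0.89, 0.82 and 0.12 in mutants 1 to 3, against 0.34, 0.09 and -0.43 in controls 1 to 3. The 5 negative arm genes lay at 0.39, 0.35 and 0.22 in mutants, against 0.25, 0.00 and -0.26 in controls. The positive arm pair lay at -0.12, 0.06 and 0.42 in mutants, against -0.32, -0.21 and 0.53 in controls. The outputs of mutant 3 thus lay between those of controls 1 and 2, and in each group the positive arm was highest where the outputs were lowest, in the library numbered 3.

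**Figure D3:**
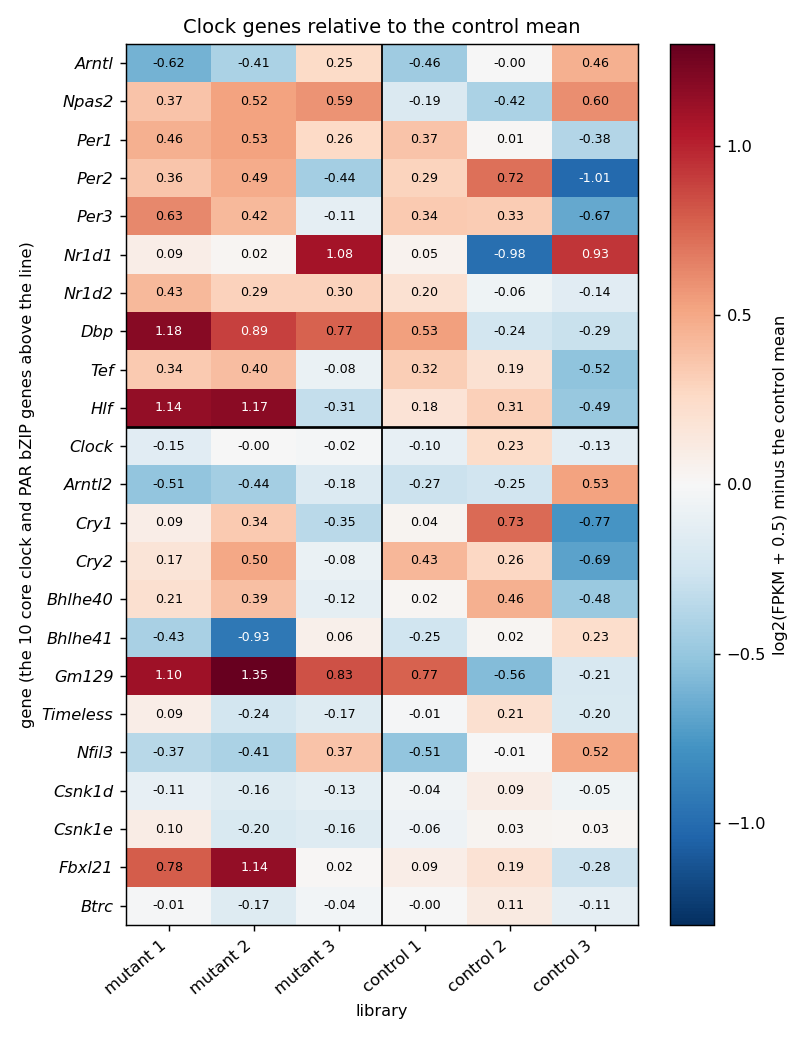
Log2(FPKM + 0.5) minus the control mean for the 10 genes (above the black line) and 13 other tested clock genes (below it), in mutants 1 to 3 (left) and controls 1 to 3 (right), with each value printed in its cell. Dbp (0.77 to 1.18) and Gm129 (0.83 to 1.35) are high in each mutant, while Per2 and Cry1 are low in both libraries numbered 3.

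The spread between libraries was wide for these genes. Their median coefficient of variation over the 6 libraries was 33.9%, against 14.2% for all genes tested, and ranged from 15.3% for Nr1d2 to 54.6% for Hlf. For 7 of the 10 genes both libraries numbered 3 lay outside the range of the other 4, against 37.3% of all genes. Arntl, Npas2 and Nr1d1 were higher there, by mean log2 differences of 0.73, 0.52 and 1.20. Per2, Hlf, Per3 and Tef were lower there, by -1.19, -1.10, -0.82 and -0.62. Per1 (-0.41), Dbp (-0.35) and Nr1d2 (-0.14) were not set apart. For 7 of the 10, all but Per1, Nr1d2 and Dbp, the difference between the libraries numbered 3 and the others was larger in size than that between mutants and controls. The same libraries differed in some epithelial markers and in muscle markers, and the part of tissue makeup in this pattern was not tested.

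The order of the genes by level also differed between libraries. The mean over 6 libraries was 41.3 FPKM for Nr1d1, 40.4 for Dbp, 37.8 for Tef, 23.6 for Nr1d2, 13.1 for Per2, 12.2 for Per1, 5.396 for Per3, 4.20 for Hlf, 3.76 for Arntl and 2.21 FPKM for Npas2. Only Per1 and Per3 among neighbours in that order had ranges that did not overlap. Nr1d1 exceeded Dbp in 2 of 6 libraries and Dbp exceeded Tef in 3 of 6, so the top 3 have no fixed order. The most abundant of the 10 was Dbp in mutants 1 and 2, Tef in controls 1 and 2, and Nr1d1 in mutant 3 and control 3. Npas2 was the lowest in mutants 1 and 2 and controls 1 and 2, and Hlf in mutant 3 and control 3.

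Arntl and Per3 ran in nearly opposite order across the libraries. Arntl increased in the order mutant 1, control 1, mutant 2, control 2, mutant 3 and control 3. Per3 decreased in almost that order, from 7.36 FPKM in mutant 1 down to 2.70 FPKM in control 3, with only mutant 2 and control 1 exchanged. The ratio of Dbp to Arntl was 25.5, 17.5 and 9.59 in mutants 1 to 3, against 14.1, 5.73 and 3.87 in controls 1 to 3. Each mutant exceeded its same-numbered control in this ratio, but the groups overlapped. Nr1d1 was high where Per2 was low, and its ratio to Per2 was 2.30, 2.01 and 8.19 in mutants 1 to 3, against 2.35, 0.838 and 11.3 in controls 1 to 3. Both libraries numbered 3 thus combined high Arntl and Nr1d1 with low Per2.

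**Figure D4:**
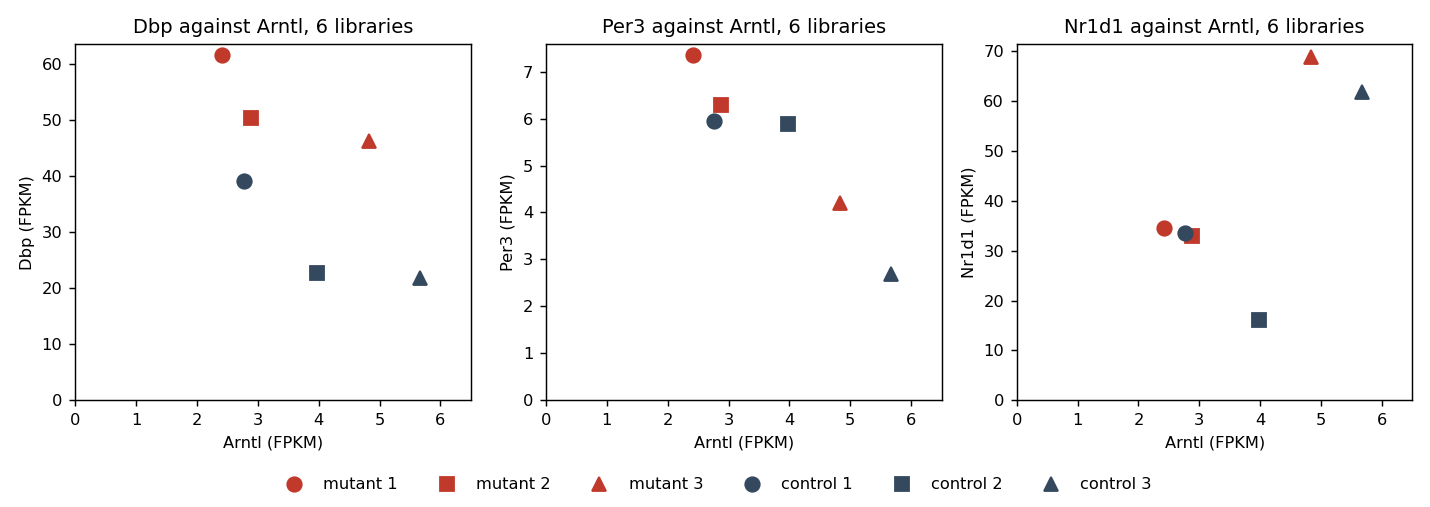
Dbp, Per3 and Nr1d1 (FPKM, vertical) against Arntl (FPKM, horizontal) in the 6 libraries, all axes linear from 0, with mutants in red and controls in dark blue. For Dbp the mutants lie above the controls at similar Arntl, Per3 is lower where Arntl is higher with both groups mixed, and the triangles of both libraries numbered 3 have the highest Arntl and Nr1d1.

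Isoform levels showed which transcripts carried these values. Of 13 deposited isoforms of the 10 genes 12 were tested, and 0 were called, against 0.00617% of all 16213 isoforms tested. Isoforms of 3 genes (Dbp, Nr1d2 and Tef) lay higher in each mutant than in any control, 3 of 12, against 4.18% of all isoforms. For Dbp and Nr1d2 this isoform is the only one deposited and repeats the gene level. The Tef isoform of 4151 bases, which begins at the upstream start, lay at 16.3, 10.9 and 10.99 FPKM in mutants 1 to 3, against 10.5, 9.44 and 6.12 FPKM in controls 1 to 3. The lowest mutant was just above the highest control, and the log2 change was 0.54 ± 0.25 (limma adjusted p = 0.999, exact two-sided permutation p = 0.1). The Tef isoform of 4244 bases, from the downstream start, lay at 26.9, 34.5 and 21.2 FPKM in mutants, against 32.4, 29.7 and 17.6 FPKM in controls, with a log2 change of 0.07 ± 0.28. The upstream isoform made up 31.9 ± 7.16% of Tef in mutants and 24.8 ± 0.920% in controls, with overlap. Both Tef starts held an E-box in their windows.

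The 2 Per1 isoforms varied more than the Per1 total. The isoform of 4660 bases, from the upstream start whose window is printed above, lay at 6.97, 6.13 and 0.00103 FPKM in mutants 1 to 3, against 2.64, 6.54 and 3.25 FPKM in controls 1 to 3. The isoform of 4645 bases lay at 7.40, 8.92 and 12.4 FPKM in mutants, against 10.8, 3.86 and 4.54 FPKM in controls. In mutant 3 nearly all Per1 was assigned to the second isoform. The split of a gene's reads between its isoforms is an estimate, and that of Per1 is reported as uncertain. Arntl had a deposited isoform of 2615 bases that was under the filter and reached 0.378 FPKM in mutant 3, against at most 0.00384 FPKM in each other library.

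**Figure D5:**
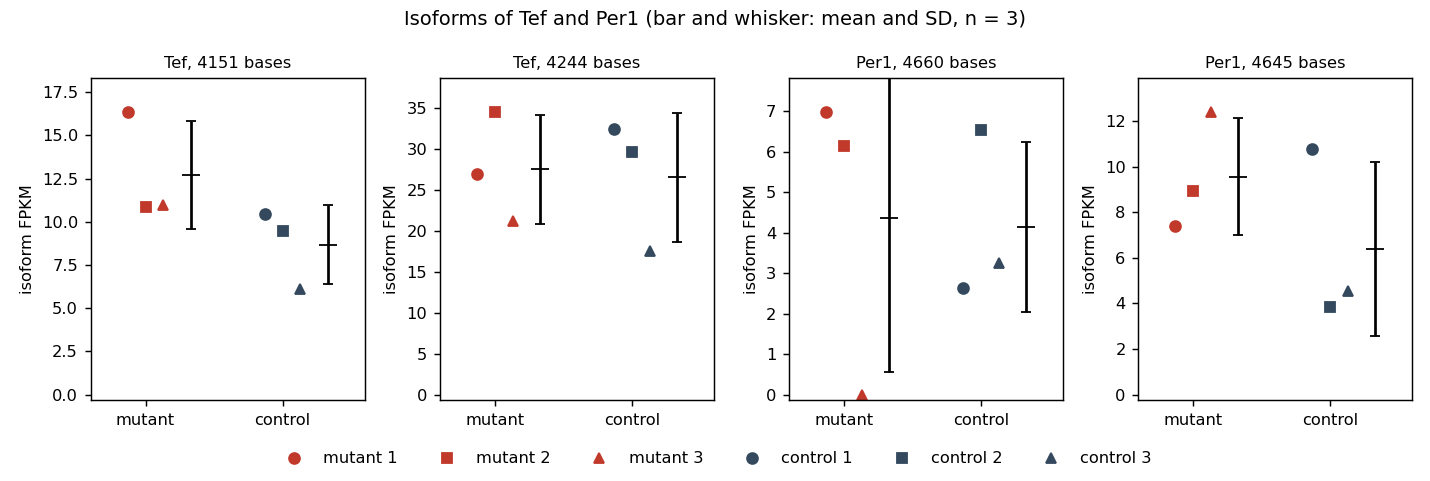
Isoform FPKM (linear axes) of the 2 Tef and 2 Per1 isoforms, named by length, in mutants 1 to 3 (red) and controls 1 to 3 (dark blue), with the mean and SD of each group (n = 3). The Tef isoform of 4151 bases has its 3 mutant points (10.9 to 16.3) above the control points (6.12 to 10.5), and the Per1 isoform of 4660 bases is near 0 in mutant 3.

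Of the other clock genes listed for this loop, 15 had a gene model, 13 were tested and 0 were called. The mean in mutants was higher for 5 and lower for 8, where 44.2% of all genes were higher, and the median log2 change was -0.07. Gm129 (now Ciart), a repressor of the activating dimer, lay at 5.51, 6.63 and 4.47 FPKM in mutants 1 to 3, against 4.28, 1.39 and 1.93 FPKM in controls 1 to 3. The groups did not overlap, where 4.05% of all genes lay higher in this way. The log2 change was 1.09 ± 0.34 (limma unadjusted p = 0.0160, adjusted p = 0.999, and 0.584 with the block). Csnk1d, a kinase of the PER proteins, lay lower without overlap, at 45.8 ± 0.923 FPKM in mutants and 50.3 ± 2.90 FPKM in controls, and 3.71% of all genes lay lower in this way. Its log2 change of -0.13 did not pass even unadjusted.

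Clock, the usual partner of ARNTL, averaged 9.60 ± 0.546 FPKM in mutants and 10.1 ± 1.55 FPKM in controls. Arntl2, a relative of Arntl, averaged 0.458 ± 0.119 FPKM in mutants and 0.781 ± 0.432 FPKM in controls. The cryptochrome Cry1 lay at 9.91, 11.95 and 7.19 FPKM in mutants 1 to 3, against 9.57, 15.8 and 5.25 FPKM in controls 1 to 3, low in both libraries numbered 3 as Per2 was. Nfil3, the D-box repressor, was high where Arntl was high, at 3.01, 2.90 and 5.36 FPKM in mutants, against 2.67, 3.99 and 5.97 FPKM in controls. Cry2 averaged 7.36 ± 1.61 FPKM in mutants and 6.64 ± 2.60 FPKM in controls, and the E-box repressor Bhlhe40 54.7 ± 9.57 FPKM in mutants and 50.1 ± 16.0 FPKM in controls. The remaining tested genes, Bhlhe41, Timeless, Csnk1e, Fbxl21 and Btrc, overlapped between the groups, and Rora and Rorb were under the filter.

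Of 11 tested clock-controlled genes of many organs, 0 were called and 0 passed an unadjusted p under 0.05 in limma. The mean was higher in mutants for 8, against 44.2% of all genes, with a median log2 change of 0.17. Those of smallest p were Ccrn4l (nocturnin), at 36.7 ± 10.3 FPKM in mutants and 25.7 ± 5.72 FPKM in controls, and Usp2, a deubiquitinase, at 43.6 ± 10.1 FPKM in mutants and 34.5 ± 8.09 FPKM in controls. Of 8 intestinal transport genes reported to follow the clock, 0 were called and 7 had the higher mean, against the same 44.2%. Slc5a1, the sodium-glucose transporter, lay at 995 ± 247 FPKM in mutants and 678 ± 78.0 FPKM in controls, the only one of the 8 at an unadjusted p under 0.05 (0.0414, limma adjusted p = 0.999). Lists of 8 glucocorticoid response genes (Per1 among them), 7 immediate early genes and 7 fasting genes also held 0 called genes. The mean was higher in mutants for 6 of the 8, 3 of the 7 and 3 of the 7 (44.2% over all genes), with median log2 changes of 0.29, -0.0051 and -0.07. Values of the groups did not overlap for 1 gene of each list, higher in mutants in each case, where 4.05% of all genes lay higher in this way. These genes were singled out after their values were seen. These were Klf9, a glucocorticoid target, at 18.2 ± 1.59 FPKM in mutants and 14.3 ± 0.946 FPKM in controls, Ppargc1a, the metabolic coactivator, at 12.6 ± 0.820 FPKM in mutants and 8.75 ± 1.68 FPKM in controls, and the immediate early gene Fos, at 116 ± 7.34 FPKM in mutants and 99.7 ± 6.85 FPKM in controls. Among fasting genes of lower mean, Cyp4a10 had a log2 change of -0.90 and Pdk4 of -0.54, and the immediate early gene Atf3 had one of -0.42, each with overlap.

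Among 11319 named genes of at least 1 FPKM on average outside the 10, those closest to Dbp over the 6 libraries, by Pearson's r of log2 levels, were Ift52 (0.978), Hkdc1 (0.966), Cdk5rap1 (0.965), Syt12 (0.964) and Bmyc (0.960). Ift52 lay at 16.5 ± 0.738 FPKM in mutants and 13.6 ± 0.768 FPKM in controls, without overlap. It was picked for its likeness to Dbp, whose groups did not overlap either, so this is not a separate observation. Those closest to Arntl were Mall (0.996), Zdhhc20 (0.993), Elof1 (0.989), Zcchc17 (0.988) and Tmem173 (0.988). With 6 libraries that share depth and tissue makeup, and this many candidates, such values describe a likeness only.

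The authors' deposited table, made from their normalized counts, listed all 10 genes, and 0 had an adjusted p under 0.05 there, while 26 of the 18605 genes with a p did. The authors' deposited table gave Dbp a fold change of 1.83 (mutant over control), p = 0.000663 and an adjusted p of 0.274, at rank 45 by p. The same authors' deposited table gave folds of 1.304 for Nr1d2, 1.46 for Npas2, 1.35 for Per1, 1.91 for Hlf, 1.27 for Per3, 1.22 for Nr1d1, 1.17 for Tef, 1.06 for Per2 and 0.821 for Arntl, each with an adjusted p of 1. Directions there matched those of the FPKM comparison for all 10 genes.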

How the data were processed

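Total RNA (RIN above 8) of 6 duodenum samples went into TruSeq libraries for the HiSeq2000, per the labels. The submitters' processing notes name Cufflinks, TopHat, DESeq, CASAVA 1.8.2 and the build mm9 without roles or options. The authors deposited FPKM per gene and per isoform, and a coverage signal per isoform, per the file headers. A further deposited table holds, for each gene, the normalized mean count of either group (a signal), the ratio of these means, that fold on the log2 scale, and p-values with and without adjustment. The ratio of coverage to FPKM gave each library's depth in fragments.

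Genes of at least 0.5 FPKM in at least 3 libraries (13596) entered a limma fit of log2(FPKM + 0.5) (limma 3.58.1 with trend and robust prior, statmod 1.5.0, R 4.3.3). Tests were two-sided, p-values were adjusted by Benjamini and Hochberg's method over all genes, and the threshold was 0.05. A fold on this scale understates the change of low genes. Isoforms were fitted in the same way, and all 10 genes passed the filter. Python 3.11.15, pandas 2.3.3, numpy 2.4.6, scipy 1.17.1 and matplotlib 3.10.9 served for the rest. The code was tested on simulated data. Alternatives were other pseudocounts, filters and scalings, quality weights, a plain prior, the replicate block and leaving out libraries.

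Mutants and controls are both numbered 1 to 3, with no word in the labels on what links equal numbers. The deviations of same-numbered libraries from their group means correlated at 0.26, 0.25 and 0.58. By the rule that all 3 exceed 0.1 the numbers were treated as pairs in the blocked fit and in the pair differences. The main fit and the permutation tests did not use the numbers. The crossed values, 0.30 (control 1, mutant 2) and 0.19 (mutant 1, control 2), exceed 0.1 too. The rule thus cannot decide how the libraries numbered 1 and 2 match, and the blocked fit and the pair differences rest on that matching. The blocked fit is printed for Dbp, where it changed the call, and for Per1, Nr1d2, Hlf and Gm129, where it did not. Of the 10 genes it changed no other call. The genes named are the 10, the other clock genes of the loop (some are not reported here), up to 4 output and 2 transport genes of smallest p, and the 5 closest in pattern to Dbp and to Arntl. Klf9, Ppargc1a, Fos, Cyp4a10, Pdk4 and Atf3 were singled out after their values were seen. The 10 genes and all lists were chosen with earlier results of these data known. Gene overlaps come from GENCODE vM1 and promoter windows from RefSeq.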

Additional observations from a re-analysis of the deposited data

How the results depend on the processing

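The count of called genes was 3, and it was 1 without a filter, 1 with upper quartile scaling, 19 with library quality weights, 22 with the replicate block and 186 without both libraries numbered 3, a setting chosen after seeing the data. Leaving out 1 library at a time gave 0 to 63 called genes (63 without mutant 3). Of the 10 clock genes 0 were called, and 1 with the replicate block (Dbp) and 1 without both libraries numbered 3 (Hlf). Called isoforms numbered 1, and 3 with the replicate block, 14 without both libraries numbered 3 and 0 to 5 with 1 library left out.

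Directions turned for 4 of the 10 genes. Per2 had a log2 change of -0.082 without both libraries numbered 3 and ranged from -0.37 to 0.50 with 1 library left out. The ranges were -0.024 to 0.52 for Per3, -0.090 to 0.86 for Nr1d1 and -0.040 to 0.38 for Tef, each with its lowest value without 1 control (control 2 for Nr1d1, control 3 for the others). The other 6 genes kept their direction in every setting run, and the cause of these turns was not tested. With 3 libraries a group, a gene that is not called may still differ, and low genes such as Npas2 rest on as few as 100 fragments.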
